A study of Mus musculus with 34 samples.

Results

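The genes described here are 9 interferon-stimulated genes, *Ifit1*, *Ifit3*, *Irf7*, *Isg15*, *Oasl2*, *Bst2*, *Usp18*, *Ifi27* and *Rtp4*. They were chosen by symbol from the 16389 genes of the deposited table, and all 9 were found there. The data are RNA-seq values from cortex, hippocampus and thalamus of 12 male C57BL/6 mice, with 34 libraries in all. The WT CON mice received no irradiation, no transplant and no inhibitor (3 cortex, 4 hippocampus and 4 thalamus libraries). The GFP-BM CON mice received 1000 cGy to the whole body and bone marrow from CAG-EGFP donors, whose cells express green fluorescent protein, with no inhibitor (4, 4 and 3 libraries). The GFP-BM REPOP mice received the same irradiation and marrow and then, 3.5 months later, PLX3397 in chow at 600 ppm for 14 days, followed by 6 months of recovery (4, 4 and 4 libraries). PLX3397 blocks CSF1R, a receptor on which microglia depend for survival, and cells of the donor marrow can take their place after it is withdrawn. Each library came from 1 region of 1 animal, one hemisphere was used for RNA after perfusion, and the piece called thalamus here was dissected together with the striatum. The irradiation reached head and body, so GFP-BM CON and GFP-BM REPOP share it and WT CON lacks it, and its effect cannot be told apart from that of the transplant in the contrasts with WT CON. Irradiated mice were 4 months old when irradiated, and the deposited labels give no age.

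Type I interferons are secreted proteins that warn cells of viral infection. They bind a receptor made of IFNAR1 and IFNAR2, which signals through the kinases JAK1 and TYK2 to the interferon-stimulated response element in the promoters of interferon-stimulated genes. Type II interferon acts through its own receptor and the gamma-activated site. In brain, microglia and other myeloid cells, endothelial cells and astrocytes are all known to express such genes. Among the 9 genes, *Irf7* encodes a transcription factor that raises type I interferon output, *Isg15* a ubiquitin-like protein that is coupled to other proteins, and *Usp18* the protease that removes it and also damps the interferon receptor. *Ifit1* and *Ifit3* encode proteins that bind viral RNA or assist in this, *Oasl2* a member of the oligoadenylate synthetase family, and *Bst2* tetherin, a membrane protein that holds budding viruses at the cell surface and is also known as a surface marker of plasmacytoid dendritic cells. *Ifi27* encodes a small membrane protein of mitochondria and nuclear envelope, and *Rtp4* a chaperone of receptors at the cell membrane.

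The promoters of 6 of the 9 genes were in the RefSeq promoter table (GRCm38.p6, the same build as the mm10 of the processing notes). The window ran from 250 bases before each start site to 50 bases after it. The core of the interferon-stimulated response element, searched as GAAANNGAAA on both strands, lay in 4 of these 6 windows, against 3.44% of all 32851 promoters and 2.80% of the 14690 promoters of genes tested here. With 1 mismatch in its 8 fixed letters allowed, 5 of 6 windows held it, against 35.4% of all promoters. The gamma-activated site core, searched as TTCNNNGAA, lay only in the *Bst2* window, against 8.30% of all promoters, and there it overlapped the response element. The *Irf7* window held neither core. Below are the 200 bases before the start site of the 4 genes that hold the response element, shown because this element is the one through which type I interferon is known to act, with the core in capitals and each sequence on the strand of its gene. The *Bst2* stretch lies at chr8:71537473-71537672 (minus strand), that of *Ifit3* at chr19:34583329-34583528 (plus), that of *Isg15* at chr4:156200819-156201018 (minus) and that of *Ifit1* at chr19:34640689-34640888 (plus).
Bst2: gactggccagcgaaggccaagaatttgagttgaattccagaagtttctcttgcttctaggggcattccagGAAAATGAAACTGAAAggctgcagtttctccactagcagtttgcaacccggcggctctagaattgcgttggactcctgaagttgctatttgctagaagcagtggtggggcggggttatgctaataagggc
Ifit3: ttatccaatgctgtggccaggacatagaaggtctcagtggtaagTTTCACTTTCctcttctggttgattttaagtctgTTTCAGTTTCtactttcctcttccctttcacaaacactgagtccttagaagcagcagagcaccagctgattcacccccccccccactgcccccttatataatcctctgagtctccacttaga
Isg15: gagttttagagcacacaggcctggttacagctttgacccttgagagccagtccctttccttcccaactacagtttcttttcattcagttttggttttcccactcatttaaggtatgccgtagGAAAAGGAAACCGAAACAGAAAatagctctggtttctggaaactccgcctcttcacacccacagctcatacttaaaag
Ifit1: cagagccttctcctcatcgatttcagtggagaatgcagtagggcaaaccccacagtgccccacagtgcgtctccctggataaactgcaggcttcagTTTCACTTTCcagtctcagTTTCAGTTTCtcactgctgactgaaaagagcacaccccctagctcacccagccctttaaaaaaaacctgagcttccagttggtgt
In *Bst2* the 2 copies overlapped and ran from position -130 to -115 relative to the start. In *Isg15* the 3 copies were chained in the same way, from -78 to -57. In *Ifit3* and *Ifit1* the 2 copies stood apart and read on the opposite strand, which shows them as TTTCACTTTC and TTTCAGTTTC in both genes. *Ifit3* has a near-identical copy, *Ifit3b*, so reads could be split between the copies and its values are uncertain to that extent. A match is a description of the letters and does not show that a factor binds.

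Between 17085018 and 26010509 reads per library, with a median of 21367227, stood behind the values. Cortical markers (4 genes) summed to 85.1 to 99.7 FPKM in cortex libraries and at most 72.2 elsewhere. Thalamic markers (4 genes) overlapped between regions, at 79.4 to 190 FPKM in thalamus libraries, up to 92.5 in hippocampus and up to 60.6 in cortex. Hippocampal markers overlapped, at 28.7 to 142 FPKM in hippocampus and 28.9 to 49.6 in cortex, and striatal markers overlapped too, at 116 to 533 FPKM in the thalamus pieces and 136 to 360 in cortex. The library labelled GFP-BM REPOP hippocampus replicate 1 had the lowest summed level of 5 hippocampal markers of all hippocampus libraries, 28.7 FPKM, and the highest of 4 cortical markers among them, 72.2 FPKM. The other GFP-BM REPOP hippocampus libraries also had more of the cortical markers (from 40.9 FPKM) than the WT CON (at most 33.7) and GFP-BM CON (at most 33.7) ones. GFP-BM REPOP hippocampus replicate 4 had a summed level of 5 striatal markers of 1010 FPKM, against at most 342 in the WT CON hippocampus. A second measure was the difference in median log2 level between genes of 58.2% GC or more and genes of 41.5% GC or less. It was 3.65 in WT CON thalamus replicate 2 and 3.39 in WT CON hippocampus replicate 1, against 0.411 to 2.62 in the others. In thalamus it was higher in every WT CON library (1.09 to 3.65) than in GFP-BM CON (0.453 to 0.827) and GFP-BM REPOP (0.506 to 0.938), so this measure and the treatment cannot be told apart there. FPKM is a level scaled to gene length and library depth, so it can be set side by side between genes.

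The 9 genes were expressed at low to moderate levels, highest for *Ifi27* and lowest for *Usp18*. Over all 34 libraries the mean level was 33.6 FPKM for *Ifi27* (chromosome 12), 8.58 for *Bst2* (chromosome 8), 4.68 for *Ifit3* (chromosome 19), 2.70 for *Isg15* (chromosome 4) and 1.61 for *Oasl2* (chromosome 5). It was 1.48 FPKM for *Irf7* (chromosome 7), 1.40 for *Rtp4* (chromosome 16), 0.723 for *Ifit1* (chromosome 19) and 0.661 for *Usp18* (chromosome 6). Each gene is protein coding. All 9 passed the filter on low values (1 FPKM in at least 3 libraries), although *Ifit1* and *Usp18* reached 1 FPKM in only 5 libraries each. None of the 5 for *Ifit1* was a WT CON library. Behind these levels stood 436 to 1661 reads per library for *Ifi27*, 57 to 273 for *Bst2*, 11 to 48 for *Usp18* and 6 to 106 for *Ifit1*. At the median read number, counting alone gives a spread of 3.77% for *Ifi27*, 9.05% for *Bst2*, 16.3% for *Ifit1* and 20.4% for *Usp18*, and this covers counting error only.

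**Figure D1:**
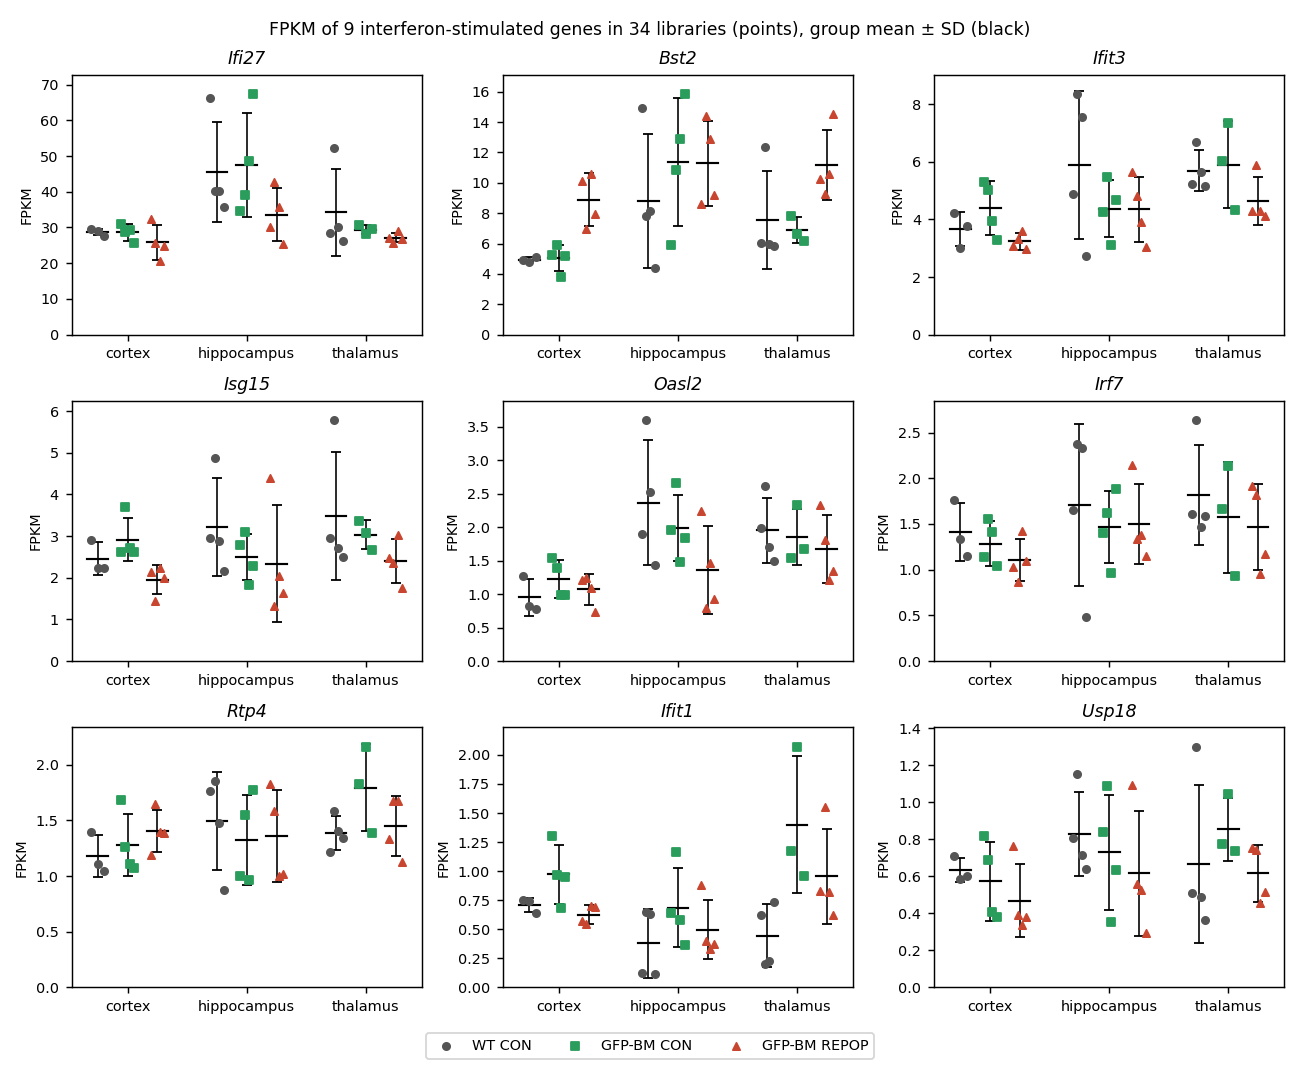
Level in FPKM (vertical axis, linear from 0) of each of the 9 genes in every library, by region (horizontal axis) and treatment (colour and symbol), with group mean ± SD in black and 3 or 4 libraries a group. Bst2 in cortex is the clearest separation, with GFP-BM REPOP at 6.95 to 10.6 FPKM above all other cortex libraries (at most 5.88), while most other groups overlap.

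*Bst2* was the 1 gene of the 9 that passed the test between treatments, and it did so in 1 contrast. In cortex its level was 4.90, 4.80 and 5.13 FPKM in the 3 WT CON libraries. It was 5.22, 5.88, 3.81 and 5.20 FPKM in the 4 GFP-BM CON libraries. The 4 GFP-BM REPOP libraries had 10.1, 6.95, 10.6 and 7.93 FPKM. All 4 repopulated cortices were thus higher than each of the other 7, and the 2 control groups lay on top of each other. On the log2(FPKM + 0.1) scale the *Bst2* level of GFP-BM REPOP exceeded that of WT CON by 0.81 (SE 0.16, 95% interval 0.47 to 1.16, limma adjusted p = 0.0435), and 1 of 9 genes passed where 0.734% of the 14710 genes tested did. Groups did not overlap for 1 of the 9, *Bst2*, against 9.48% of all genes. The call did not survive every change: it was kept in 7 of 13 other settings and in 3 of 11 fits that left out 1 cortex library. It was lost without GFP-BM REPOP replicate 1, 3 or 4, without any of the 3 WT CON libraries and without GFP-BM CON replicate 1 or 4, with a difference of 0.72 to 0.92 and an adjusted p of 0.0199 to 0.134 over the 11 fits.

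Against GFP-BM CON, which had the same irradiation and marrow, cortical *Bst2* was higher in GFP-BM REPOP by 0.81 (SE 0.15, interval 0.48 to 1.13), with groups that did not overlap and a limma adjusted p of 0.107. That value missed the threshold in all 13 other settings, and passed it only without GFP-BM REPOP replicate 2 (0.92, adjusted p = 0.0369). Here 0 of 9 genes passed, against 0.0476% of all genes, and groups did not overlap for 2 of the 9 (*Bst2* higher, *Isg15* lower) against 3.09% of all genes. GFP-BM CON and WT CON cortex differed in *Bst2* by 0.01 (interval -0.34 to 0.36, limma adjusted p = 0.990). Both contrasts of GFP-BM REPOP use the same 4 libraries, so they are not independent of each other.

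Cell type markers in cortex are set beside *Bst2* here as a description only. The summed level of 7 markers of engrafted myeloid cells (*Ms4a7*, *Apobec1*, *Ms4a6b*, *Ms4a6c*, *Ccr1*, *Lyz2* and *Clec7a*) was 61.0 to 99.0 FPKM in GFP-BM REPOP cortex, 11.9 to 20.9 in GFP-BM CON and 8.10 to 9.68 in WT CON. That of 8 microglial markers ran the other way, at 67.7 to 76.4 FPKM in GFP-BM REPOP, 80.5 to 86.0 in GFP-BM CON and 90.6 to 108 in WT CON. All engrafted cell markers but *Clec7a* are in the signature that the paper drew from GFP-BM REPOP against WT CON in these data. *Clec7a* is in a gene module that the paper tied to monocyte presence, and *Siglech* and *Crybb1* of the microglial list are among its lowered genes. Their direction between these groups followed from that choice. Of 6 listed markers of plasmacytoid dendritic cells the table lists *Tcf4*, *Irf8* and *Cox6a2* and lacks *Ly6d*, *Ccr9* and *Klk1*, and neurons and microglia are also known to express *Tcf4* and *Irf8*. The 3 listed summed to 37.1 to 56.5 FPKM in GFP-BM REPOP, 47.4 to 56.3 in GFP-BM CON and 30.9 to 51.1 in WT CON. Thalamic markers summed to 16.8 to 60.6 FPKM in GFP-BM REPOP cortex, 16.3 to 18.3 in GFP-BM CON and 17.9 to 23.4 in WT CON. The cortex pieces thus differed in this measure, and its part in the *Bst2* level was not tested. These are bulk tissue values, in which more cells of a type and more RNA per cell cannot be told apart, and the part of each cell type in the *Bst2* level was not tested. The GC measure was 0.411 to 0.994 in GFP-BM REPOP cortex, 0.429 to 0.583 in GFP-BM CON and 0.753 to 1.24 in WT CON, and after adjustment for GC and length the *Bst2* difference from WT CON was 0.89 (limma adjusted p = 0.0237).

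In thalamus *Bst2* did not pass the test, with positive differences in both contrasts of GFP-BM REPOP. The WT CON libraries had 6.03, 12.4, 5.94 and 5.86 FPKM, the GFP-BM CON libraries 7.81, 6.63 and 6.18, and the GFP-BM REPOP libraries 10.2, 9.29, 10.6 and 14.5. All 4 GFP-BM REPOP libraries lay above the 3 of GFP-BM CON, and above 3 of the 4 of WT CON. The exception, WT CON replicate 2, is 1 of the 2 libraries that stood apart in the GC measure. Against WT CON the difference was 0.62 (SE 0.24, interval 0.09 to 1.14, limma adjusted p = 0.169), and against GFP-BM CON 0.68 (SE 0.26, interval 0.11 to 1.25, adjusted p = 1.00). Without WT CON replicate 2 the first of these was 0.88 (adjusted p = 0.0357), and after adjustment for the GC and length of each gene it was 0.86 (adjusted p = 0.0473, an alternative chosen after seeing the data). In the same libraries the engrafted myeloid markers summed to 110 to 193 FPKM in GFP-BM REPOP, 38.4 to 50.9 in GFP-BM CON and 14.8 to 31.5 in WT CON. The paper's signature was drawn from thalamus too, so the limit given for cortex holds here.

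In hippocampus *Bst2* was spread widely in each treatment. WT CON had 14.9, 7.84, 8.13 and 4.36 FPKM, GFP-BM CON 5.90, 10.9, 12.9 and 15.9, and GFP-BM REPOP 8.62, 14.4, 12.9 and 9.22. The groups overlapped, and the difference of GFP-BM REPOP from WT CON was 0.45 (SE 0.36, interval -0.34 to 1.24, limma adjusted p = 0.653). Without WT CON replicate 1 it was 0.75 and without WT CON replicate 4 it was 0.16 (limma adjusted p = 0.647 and 0.880). The 2 highest hippocampal values, WT CON replicate 1 and GFP-BM CON replicate 4, came from libraries with 6465 and 6337 FPKM of 4 summed choroid plexus markers, against 22.9 to 4883 in the other hippocampus libraries. The highest *Ifi27* values of all 34 libraries, 66.2 and 67.4 FPKM, were in these same 2. The part of choroid plexus in these values was not tested. The effect of GFP-BM REPOP against WT CON on *Bst2* differed between hippocampus and cortex by -0.37 (SE 0.43, limma adjusted p = 0.964) and between thalamus and cortex by -0.21 (SE 0.43, adjusted p = 0.848), so no difference between regions was shown. Without WT CON hippocampus replicate 1 the first of these was -0.07.

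Over the 9 groups the mean level of *Bst2* was lowest at 4.94 ± 0.166 FPKM (SD, n = 3) in WT CON cortex and 5.03 ± 0.870 (n = 4) in GFP-BM CON cortex, followed by 6.88 ± 0.844 (n = 3) in GFP-BM CON thalamus and 7.55 ± 3.21 (n = 4) in WT CON thalamus. Next came WT CON hippocampus at 8.81 ± 4.41 FPKM (n = 4) and GFP-BM REPOP cortex at 8.89 ± 1.73 (n = 4). The highest means were 11.2 ± 2.30 FPKM in GFP-BM REPOP thalamus, 11.3 ± 2.79 in GFP-BM REPOP hippocampus and 11.4 ± 4.19 in GFP-BM CON hippocampus (n = 4 each). Neighbours in this order differed by less than the larger of their SDs, except GFP-BM CON cortex and GFP-BM CON thalamus.

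The other 8 genes did not pass in any contrast between treatments. In GFP-BM REPOP against WT CON, 0 of 9 genes passed in hippocampus (0.0136% of all genes did) and 0 of 9 in thalamus (0.836%). At an unadjusted p under 0.05 there were 1 of 9 in cortex, 1 in hippocampus and 2 in thalamus, against 14.3%, 9.67% and 25.0% of all genes. The difference was negative for 6 of 9 genes in cortex, 7 in hippocampus and 5 in thalamus, with a median over the 9 of -0.17, -0.34 and -0.22 on the log2 scale, where the median of all genes was 0.02, 0.00 and -0.05. Groups did not overlap for 0 of 9 genes in hippocampus or thalamus, against 4% and 18.8% of all genes.

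*Isg15* in cortex was the clearest of the lower values. It was 2.63, 3.70, 2.72 and 2.61 FPKM in GFP-BM CON and 2.13, 1.44, 2.24 and 2.00 FPKM in GFP-BM REPOP, with 2.91, 2.24 and 2.23 in WT CON. Every GFP-BM REPOP value was below every GFP-BM CON value, while WT CON lay between and overlapped both. The difference from GFP-BM CON was -0.56 (SE 0.16, interval -0.91 to -0.21, limma adjusted p = 0.669), which did not pass. *Ifit1* differed by -0.54 (SE 0.19, adjusted p = 0.908) and *Ifit3* by -0.41 (SE 0.15, adjusted p = 1.00) in the same contrast. With *Bst2* these made 4 of 9 genes at an unadjusted p under 0.05 in cortex, against 4.27% of all genes, with 1 higher and 3 lower. In hippocampus and thalamus GFP-BM REPOP against GFP-BM CON gave 0 of 9 and 1 of 9 genes at that p (11.7% and 0.945% of all genes), 0 of 9 after adjustment in both (0.0272% and 0% of all genes), and non-overlapping groups for 0 and 1 of 9 (6.88% and 4.56% of all genes). The median over the 9 genes was -0.21 in cortex, -0.22 in hippocampus and -0.28 in thalamus, and 7, 6 and 8 of the 9 differences were negative.

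*Ifit3*, *Irf7*, *Usp18*, *Rtp4* and *Ifi27* overlapped between treatments in each region. In cortex *Ifit3* was 3.02 to 4.22 FPKM in WT CON, 3.28 to 5.30 in GFP-BM CON and 2.97 to 3.61 in GFP-BM REPOP. *Irf7*, the transcription factor gene, was 1.15 to 1.76, 1.04 to 1.56 and 0.865 to 1.42 FPKM in the same order. *Usp18*, the gene of the ISG15 protease, was 0.589 to 0.709, 0.381 to 0.818 and 0.337 to 0.762 FPKM. The ranges of the 3 treatments overlapped for each of these genes. *Ifi27*, the most abundant of the 9, was 27.7 to 29.4 FPKM in WT CON cortex, 25.5 to 31.1 in GFP-BM CON and 20.6 to 32.3 in GFP-BM REPOP. *Rtp4* lay, over all 34 libraries, between 0.878 and 2.16 FPKM.

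*Oasl2* in hippocampus had the most negative difference of GFP-BM REPOP from WT CON among the 9 genes and 3 regions. The WT CON libraries had 1.90, 3.59, 2.52 and 1.43 FPKM and the GFP-BM REPOP libraries 2.24, 0.793, 1.47 and 0.920. The groups overlapped, the difference was -0.79 (SE 0.35, interval -1.54 to -0.03), and the limma adjusted p was 0.512. Its single high GFP-BM REPOP value was in replicate 1, the library with few hippocampal markers, and without that library the difference was -1.05 (adjusted p = 0.471).

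In GFP-BM CON against WT CON none of the 9 genes passed, and *Ifit1* in thalamus had the largest difference. Its level there was 0.626, 0.200, 0.224 and 0.732 FPKM in WT CON and 1.17, 2.07 and 0.956 FPKM in GFP-BM CON, with 0.827, 1.55, 0.819 and 0.622 in GFP-BM REPOP. All 3 GFP-BM CON libraries were above all 4 of WT CON, and GFP-BM REPOP overlapped both. The difference of GFP-BM CON from WT CON was 1.54 (SE 0.44, interval 0.56 to 2.51, limma adjusted p = 0.118). It passed in 1 of 12 other settings, the fit of all 9 groups together (adjusted p = 0.0274), and without WT CON replicate 1 (1.72, adjusted p = 0.04997). Adjusted for GC and length it was 1.05 (adjusted p = 0.141), and the 2 low WT CON libraries, replicates 2 and 3, had the 2 highest GC measures of the 4 (3.65 and 2.16) and held 11 and 15 reads of *Ifit1*. GFP-BM REPOP differed from WT CON by 1.03 (SE 0.41, adjusted p = 0.172) in the same region.

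In GFP-BM CON against WT CON, 0 of 9 genes passed in cortex, hippocampus and thalamus, where 0.32%, 0% and 0% of all genes did. At an unadjusted p under 0.05 there were 0, 0 and 1 of 9, against 15.96%, 23.9% and 20.7% of all genes. Groups did not overlap for 0, 0 and 1 of 9 genes, against 16%, 13.7% and 23.1% of all genes. The median difference over the 9 genes was 0.10 in cortex, -0.16 in hippocampus and -0.06 in thalamus.

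**Figure D2:**
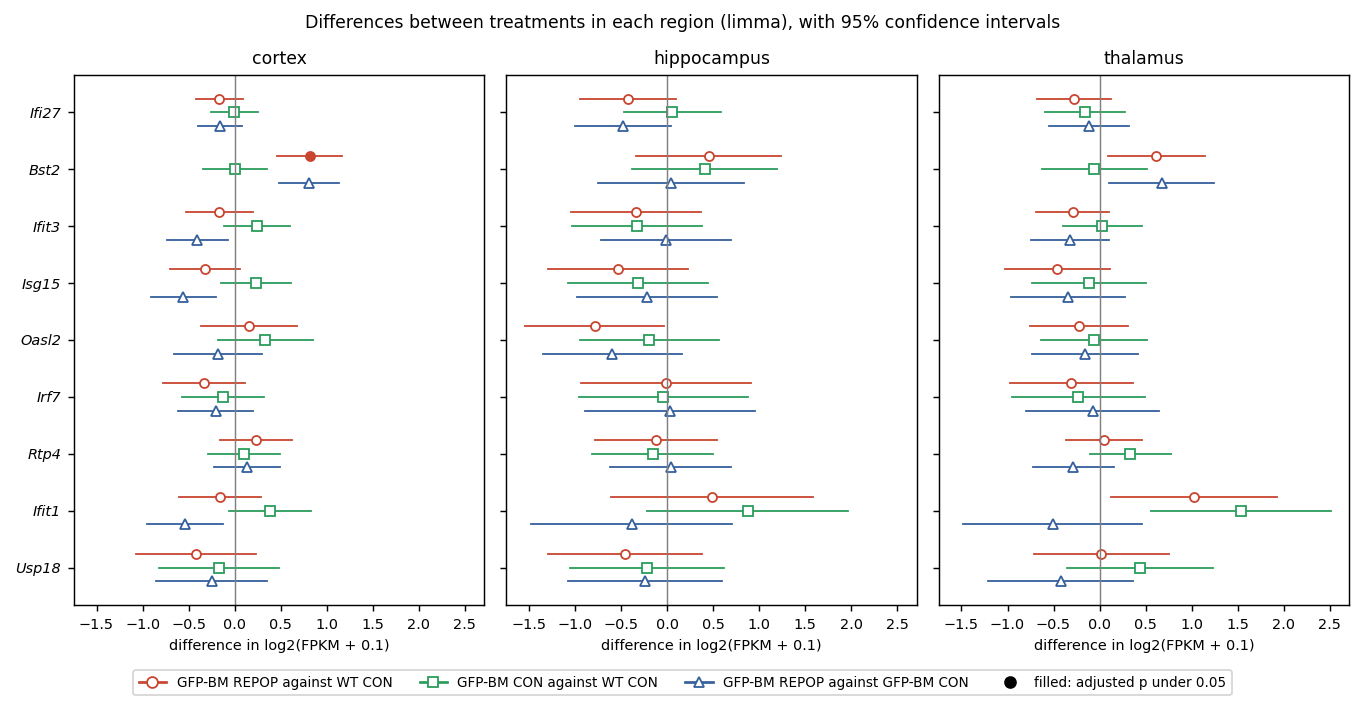
Difference in log2(FPKM + 0.1) (horizontal axis) of each of the 9 genes (vertical axis) in 3 contrasts between treatments, by region, with 95% confidence intervals from limma, and filled symbols where the adjusted p was under 0.05. The single filled symbol is Bst2 in cortex, GFP-BM REPOP against WT CON, at 0.81. Within its own panel the widest interval is that of Ifit1 in hippocampus, of Ifit1 in thalamus and of Usp18 in cortex.

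No treatment effect was shown to differ between regions for any of the 9 genes. Across 3 contrasts and 3 pairs of regions, 0 of 9 genes passed in each of the 9 limma tests of the difference. For GFP-BM REPOP against WT CON the share of all genes that passed was 0.034% between hippocampus and cortex, 0% between thalamus and cortex and 0.034% between hippocampus and thalamus. For GFP-BM CON against WT CON it was 0%, 0% and 0%, and for GFP-BM REPOP against GFP-BM CON 0.177%, 0% and 0.0272%. The intervals were wide, so a missed threshold does not show that the effects were alike. For *Ifit1* in GFP-BM CON against WT CON, for example, the difference between thalamus and cortex was 1.17 with an interval of -0.12 to 2.45.

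The regions themselves differed for 5 of the 9 genes when the 3 treatments were averaged. *Bst2* was higher in hippocampus than in cortex by 0.71 (SE 0.17, limma adjusted p = 0.00127), *Oasl2* by 0.69 (SE 0.18, adjusted p = 0.00187) and *Ifi27* by 0.56 (SE 0.12, adjusted p = 3.64e-04). *Ifit1* was lower there, by a log2 difference of -0.63 (SE 0.24, adjusted p = 0.0301). In thalamus against cortex *Oasl2* was higher by 0.71 (SE 0.18, adjusted p = 0.00252), *Ifit3* by 0.51 (SE 0.16, adjusted p = 0.00921) and *Bst2* by 0.44 (SE 0.18, adjusted p = 0.0482). Between thalamus and hippocampus *Ifit1* was higher in thalamus by 0.69 (SE 0.24, adjusted p = 0.0192) and *Ifi27* lower (-0.45, SE 0.12, adjusted p = 0.00315). These are 4, 3 and 2 of 9 genes (57.3%, 43.3% and 50.6% of all genes passed), each count below the share among all genes. *Irf7*, *Isg15*, *Usp18* and *Rtp4* passed in none of the 3 region contrasts.

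In levels, *Ifi27* ranged from 20.6 to 32.3 FPKM in the 11 cortex libraries (median 28.7), from 25.5 to 67.4 in the 12 hippocampus libraries (median 39.7) and from 25.8 to 52.3 in the 11 thalamus libraries (median 28.5). *Oasl2* ranged from 0.731 to 1.53 FPKM in cortex (median 1.10), from 0.793 to 3.59 in hippocampus (median 1.87) and from 1.22 to 2.62 in thalamus (median 1.71). Cortex was the least spread region for both genes, and hippocampus the most. The *Bst2* and *Ifi27* differences between hippocampus and cortex were 0.60 and 0.49 without WT CON hippocampus replicate 1, and 0.74 and 0.57 without GFP-BM REPOP hippocampus replicate 1, and they passed in all 34 fits that left out 1 library. The *Bst2* difference between thalamus and cortex passed in only 14 of 34 such fits, and without WT CON thalamus replicate 2 it was 0.35 (adjusted p = 0.0921). The *Ifit1* difference between hippocampus and cortex was lost without WT CON hippocampus replicate 1 (-0.53, adjusted p = 0.0644) or replicate 4 (-0.53, adjusted p = 0.0597), in both of which *Ifit1* was under 0.13 FPKM. Among 7 other settings it was lost in 3, with quantile normalization (-0.18, adjusted p = 0.397), a pseudocount of 1 and both libraries of WT CON animal 33 left out. It was also lost without GFP-BM CON cortex replicate 1, GFP-BM CON hippocampus replicate 4 or GFP-BM REPOP hippocampus replicate 3. The *Ifit1* difference between thalamus and hippocampus was lost without GFP-BM CON thalamus replicate 2 (0.59, adjusted p = 0.0560). Tissue pieces also differed in choroid plexus, oligodendrocyte and meningeal markers, and the part of these in the region differences was not tested.

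**Figure D3:**
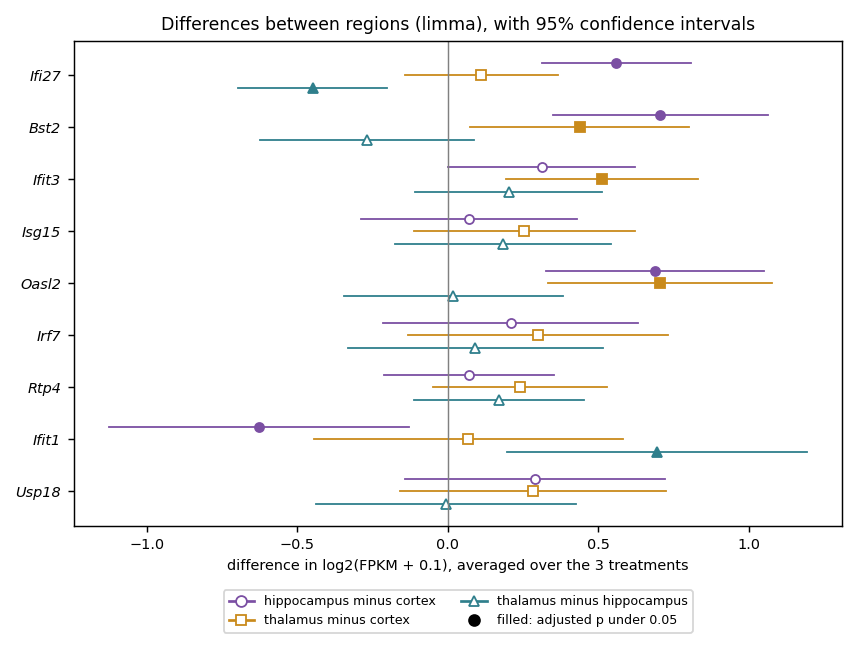
Difference between regions in log2(FPKM + 0.1), averaged over the 3 treatments (horizontal axis), for each of the 9 genes (vertical axis), with 95% confidence intervals from limma and filled symbols where the adjusted p was under 0.05. Bst2 and Oasl2 are higher in hippocampus and in thalamus than in cortex, while Ifit1 is lower in hippocampus than in either.

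Within groups, 6 of the 9 genes varied together more than the other 3 did. After each gene was centred in its group, the correlation over 34 libraries with the mean of the other members was 0.85 for *Ifit3*, 0.82 for *Irf7*, 0.74 for *Rtp4*, 0.72 for *Oasl2*, 0.72 for *Usp18* and 0.66 for *Isg15*. For *Bst2*, *Ifit1* and *Ifi27* it was 0.32, 0.31 and 0.26. *Bst2*, the gene that differed between treatments in cortex, was among the 3 with low values. These are descriptions over libraries that share animals, depth and base composition, and carry no test. WT CON thalamus replicate 2 lay above its group mean for 8 of 9 genes, with *Ifit1* the exception, GFP-BM REPOP hippocampus replicate 1 for 7 of 9, and WT CON hippocampus replicate 4 and GFP-BM REPOP hippocampus replicate 4 for 0 of 9. WT CON cortex replicate 1 and replicate 2 of both GFP-BM CON cortex and GFP-BM CON hippocampus also lay above for 8 of 9.

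**Figure D4:**
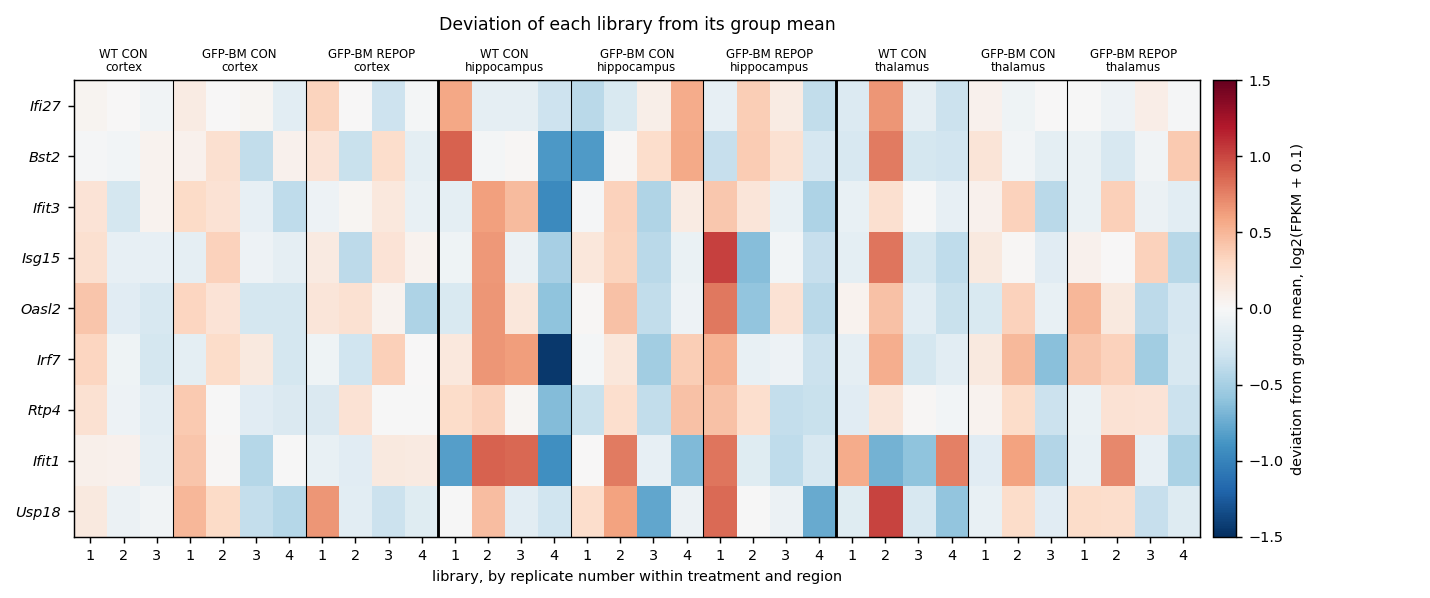
Deviation of each library from its group mean in log2(FPKM + 0.1) (colour, red above and blue below the mean) for the 9 genes (rows) in the 34 libraries (columns, by region, treatment and replicate number). Columns that are mostly 1 colour are libraries in which the genes moved together, such as WT CON thalamus replicate 2, above its mean for 8 of 9 genes.

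The genes whose pattern over the 34 libraries was most like the mean of the 9, again after centring in each group, were *Gbp2* (r = 0.83), *Slc13a3* (0.80), *Ifi27l2a* (0.78), *Uba7* (0.78), *Ccl19* (0.76), *Shisa8* (0.75), *Ly6g6e* (0.75) and *Ifitm3* (0.75). The median over all genes was -0.00483. *Gbp2*, *Ifi27l2a*, *Uba7* and *Ifitm3*, 4 of these 8, are themselves on the list of interferon pathway genes, which holds 74 of the genes tested. By rank correlation only *Gbp2* and *Uba7* stayed among the first 8. Summed markers of brain endothelial cells had a correlation of 0.59 with the mean of the 9 genes, those of microglia 0.50, of meningeal fibroblasts 0.44 and of neurons -0.42. Engrafted myeloid and neutrophil markers had 0.33 each and plasmacytoid dendritic cell markers -0.37, with the remaining lists between -0.32 and 0.28. Only 2 of 5 listed neutrophil markers and 2 of 6 T cell markers had values, and 0 of 5 for B and plasma cells. The neutrophil sum was at most 3.39 FPKM, so its correlation rests on low values. With *Bst2* alone, meningeal fibroblast markers had 0.62, choroid plexus markers 0.59, oligodendrocyte markers 0.58, engrafted myeloid markers 0.58, microglial markers 0.50 and neuronal markers -0.65. Astrocyte markers had 0.44 and endothelial markers 0.36, and the remaining lists lay between -0.07 (plasmacytoid dendritic cells) and 0.24 (striatum).

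The wider pathway was described from a list of genes with known roles in it. Of 111 listed genes other than the 9, 93 were in the table and 74 were tested. Of 8 ligands, 0 were in the table, so interferons themselves have no value here. All 6 receptor genes were in it, with *Ifngr2*, a subunit of the type II receptor, the most abundant at 21.6 ± 5.04 FPKM (SD over 34 libraries). The kinase gene *Jak1* was at 34.5 ± 4.85 FPKM, *Irf3*, a factor activated by nucleic acid sensing, at 9.56 ± 1.84, and *Tbk1*, the kinase upstream of it, at 16.6 ± 3.68. The phosphatase gene *Ptpn1*, a brake on the pathway, was at 13.1 ± 3.14 FPKM and *Irgm1*, an interferon-inducible GTPase, at 3.95 ± 0.657. Of 3 chemokine genes only *Cxcl10* was in the table, at 0.554 ± 0.656 FPKM and under the filter.

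Of these 74, *Adar* passed in both contrasts with WT CON in cortex and *Gbp7* in GFP-BM REPOP against WT CON in thalamus, which is 1 of 74 in each of the 3 contrasts, where 0.734%, 0.32% and 0.836% of all genes passed, and 0 of 74 passed in the other 6. *Adar*, which edits adenosines in double-stranded RNA, was lower in cortex of both irradiated groups. Its level was 46.9, 47.5 and 46.5 FPKM in WT CON, 37.3, 41.5, 37.6 and 38.8 in GFP-BM CON, and 36.9, 39.4, 39.6 and 37.6 in GFP-BM REPOP. Both irradiated groups lay wholly below WT CON and on top of each other. The limma difference from WT CON was -0.29 (SE 0.04, adjusted p = 0.0116) in GFP-BM REPOP and -0.28 (SE 0.04, adjusted p = 0.0350) in GFP-BM CON, which share the WT CON libraries. The first was lost only without WT CON replicate 1 (adjusted p = 0.0514) among 11 fits that left out a library, while the second held in 2 of 11, those without GFP-BM REPOP replicate 1 or GFP-BM CON replicate 2. With all 9 groups in one fit 0 genes were called in GFP-BM CON against WT CON cortex, so the second was lost there too. The GC measure was higher in every WT CON cortex library (0.753 to 1.24) than in GFP-BM CON (0.429 to 0.583). It cannot be told apart from treatment in that contrast. *Adar* was below WT CON with no overlap in hippocampus and thalamus as well, with differences of -0.41 and -0.46 in GFP-BM REPOP that did not pass (adjusted p = 0.329 and 0.0534). In these 2 regions groups did not overlap for 4% and 18.8% of all genes in GFP-BM REPOP against WT CON. For GFP-BM CON against WT CON the shares were 13.7% and 23.1%. In thalamus the GC measure cannot be told apart from treatment in either contrast with WT CON.

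*Gbp7*, an interferon-inducible GTPase with near-identical relatives, was higher in thalamus. It was 0.163, 0.0778, 0.0851 and 0.108 FPKM in WT CON, 0.992, 1.35 and 0.712 in GFP-BM CON, and 0.601, 0.974, 0.916 and 0.418 in GFP-BM REPOP. Both irradiated groups were wholly above WT CON. The WT CON thalamus values rest on only 9 to 17 reads each. *Gbp7* reached the 1 FPKM of the filter only in irradiated mice, and was at most 0.599 FPKM in WT CON of any region. It thus entered the test only through irradiated groups, so its pass against WT CON is not independent of the filter. GFP-BM REPOP exceeded WT CON by 1.95 (SE 0.30, limma adjusted p = 0.0220) and GFP-BM CON did by 2.40 (SE 0.32, adjusted p = 0.0583). Adjusted for GC and length the first value was 1.09 (adjusted p = 0.0841), and it passed in 6 of 11 fits that left out 1 library. It was lost without GFP-BM REPOP replicate 1, 2 or 3 or WT CON replicate 3 or 4. In cortex and hippocampus *Gbp7* was also wholly above WT CON in GFP-BM CON, by 1.48 and 1.28 (limma adjusted p = 0.154 and 0.114). Groups did not overlap for 16% and 13.7% of all genes there. GFP-BM REPOP overlapped WT CON in both regions. No difference between regions in the effect of treatment on *Gbp7* passed the test.

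Between regions pathway genes passed in both directions, at counts to be read against the 57.3%, 43.3% and 50.6% of all genes that passed. In hippocampus against cortex 27 of 74 were higher and 17 lower. The largest log2 differences among those higher were *Lgals3bp* (0.67), *Ifi35* (0.64) and *Ifitm3* (0.64), which encodes a membrane protein that blocks viral entry. The largest of those lower were *Herc6* (-2.45), which encodes the ligase that couples ISG15 to proteins in mouse, the phosphatase gene *Ptpn2* (-1.56) and *Eif2ak2* (-1.45), which encodes the RNA-sensing kinase PKR. In thalamus against cortex 18 were higher and 17 lower, with *Ifi27l2a* (0.90), *Lgals3bp* (0.69) and *Mavs* (0.67), the adaptor of RNA sensing, at one end and *Herc6* (-1.90), the RNA sensor gene *Ifih1* (-0.72) and *Ptpn2* (-0.69) at the other. In thalamus against hippocampus 14 were higher and 13 lower, with *Eif2ak2* (1.44), *Slfn5* (1.19) and *Ifit2* (0.90) highest and *Ptpn1* (-0.65), the kinase gene *Tyk2* (-0.43) and *Ifngr2* (-0.40) lowest.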

How the data were processed

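RNA of 34 libraries was sequenced as paired reads of 150 bases on NovaSeq and HiSeq instruments, and which library ran on which is not given in the sources used here. The authors aligned reads with STAR to mm10, counted them per gene with featureCounts and deposited FPKM values made with edgeR and limma. The deposited FPKM values were used as they are, and whole reads were recovered from their steps (100% of values whole within 0.01 reads), which gave 17085018 to 26010509 reads per library. Genes with at least 1 FPKM in 3 libraries were kept, 343 of other biotypes were removed, and 14710 were tested. limma 3.58.1 (R 4.3.3) was run with trend on log2(FPKM + 0.1), per region with its 3 treatments, with Benjamini-Hochberg adjustment over all genes tested and a threshold of 0.05. Because of the pseudocount, differences of low genes are understated. Differences between regions came from a joint fit of the 9 groups in which libraries of an animal shared a random term (estimated correlation -0.0384). Each library is a separate animal within its group, so replicates are biological. The test was checked on simulated cortex reads for GFP-BM REPOP against WT CON only. The simulation gave all genes the same spread setting and changed only genes with higher read numbers. It does not cover genes with few reads, such as *Ifit1* and *Usp18*, or the tests between regions. The 9 genes, the pathway list and the marker lists were chosen with earlier results of these data known, and other genes are named by rules: pathway genes past the threshold between treatments, the 3 largest per direction between regions, and the 8 most like the mean of the members. Alternatives were other pseudocounts, filters, scalings, sample sets, blocks, weights, voom on recovered reads and leaving out libraries. Correcting for GC and length was added after seeing the data.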

Additional observations from a re-analysis of the deposited data

Results flagged for a closer look

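In 10 of 63 groups of 4 libraries, 1 library lay far above the other 3 for 1 of the 9 genes. The cut used would flag about 5% of groups if FPKM values were normal and independent. The 63 groups are the 9 genes over the same libraries, in which several of the genes varied together. The share over all genes was not computed, so the count is not shown to exceed chance. Of the 10 values that lay apart, 5 were in WT CON thalamus replicate 2, the library with the highest GC measure. There *Bst2* was at 12.3634 FPKM (the others at 5.86 to 6.03), *Ifi27* at 52.3493 (26.2 to 30.0) and *Isg15* at 5.7799 (2.49 to 2.96). In the same library *Irf7* was at 2.6346 FPKM (1.46 to 1.61) and *Usp18* at 1.3014 (0.363 to 0.512). The other 5 were spread over 5 libraries. *Ifi27* was at 66.1823 FPKM in WT CON hippocampus replicate 1 (the others at 35.6 to 40.3), the library with the second highest GC measure and the most choroid plexus markers. *Ifit1* was at 0.8797 FPKM in the library labelled GFP-BM REPOP hippocampus replicate 1 (0.335 to 0.398). *Ifit3* was at 5.9072 FPKM in GFP-BM REPOP thalamus replicate 2 (4.10 to 4.30). *Isg15* was at 3.6975 FPKM in GFP-BM CON cortex replicate 2 (2.61 to 2.72), and *Usp18* at 0.7619 in GFP-BM REPOP cortex replicate 1 (0.337 to 0.389). The part of GC content and of tissue makeup in these values was not tested.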

How the results depend on the processing

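Of the 9 genes, the number called in GFP-BM REPOP against WT CON cortex went from 1 to 0 under quantile normalization, with all 9 groups in one fit, with only the 2 groups compared, with the replicate block, without the trend and with voom on recovered reads, and was 0 to 1 over the fits that left out 1 library. In GFP-BM REPOP against WT CON thalamus it went from 0 to 1 with array quality weights and with the GC and length correction, and was 0 to 1 when libraries were left out. In GFP-BM CON against WT CON thalamus the joint fit of all 9 groups gave 1 in place of 0, and it was 0 to 1 when libraries were left out, as it was in GFP-BM REPOP against GFP-BM CON cortex. Between hippocampus and cortex quantile normalization called 7 in place of 4, adding *Ifit3*, *Irf7*, *Usp18* and *Rtp4* and losing *Ifit1*. Between thalamus and hippocampus it called 1 in place of 2, as did leaving out both libraries of WT CON animal 33, with 1 to 2 when single libraries were left out. No difference of a named gene that passed the test turned its direction, and the cause of these moves was not tested. The replicate numbers do not pair the samples: of 32 pairs with the same number, 5 had deviations correlated above 0.1 and 14 below -0.1. With the replicate block the *Bst2* difference in cortex was 0.83 (limma adjusted p = 0.165). Over all genes, 108 were called in GFP-BM REPOP against WT CON cortex, 27 with all 9 groups in one fit and 164 with array weights. In thalamus 123 were called, 11 with the replicate block and 1954 with all 9 groups in one fit. In GFP-BM CON against WT CON 47 were called in cortex, 0 to 97 over the settings, and 0 in hippocampus and thalamus, where the joint fit called 2849 and 1347. Leaving out WT CON hippocampus replicate 3 called 963 there, and leaving out WT CON thalamus replicate 1 called 1179. In GFP-BM REPOP against WT CON hippocampus 2 were called, 0 to 411 over the settings. Against GFP-BM CON 7 were called in cortex (1 to 18), 4 in hippocampus (0 to 1022, the last with array weights) and 0 in thalamus (0 to 7). Low read numbers limit *Ifit1* and *Usp18* most.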
